A study of Mus musculus with 9 samples.

Results

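The enzymes and transporters that carry glucose to lactate and into the pentose phosphate pathway form a set of 32 genes, taken from textbook maps of these pathways as glycolysis (19 genes), pyruvate and lactate handling (3), glucose and lactate transport (5) and the pentose phosphate pathway (5). The set and the lists compared with it were chosen with earlier results of these data known. A gene was read from probe sets (groups of short probes against 1 transcript) whose annotation gives its symbol and no other. By this rule 29 of the 32 were measured, among 18194 genes named on the array. Gpi1, Eno1 and G6pdx have no such probe set in the annotation used and were not analysed here. Gapdh was read from the array's control probe sets, its remaining probe sets carrying pseudogene symbols as well.

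Glycolysis splits glucose into pyruvate in the cytosol and yields ATP without oxygen, and lactate dehydrogenase then turns pyruvate into lactate, which monocarboxylate transporters carry out of the cell. The pentose phosphate pathway branches off after hexokinase and makes NADPH and the ribose of nucleotides. Many of these genes are known targets of the hypoxia-inducible factor HIF-1, and activated neutrophils and macrophages are known for high glycolysis.

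RNA was measured in stromal vascular fractions (SVFs), the cells left when inguinal subcutaneous fat is digested and the floating adipocytes are removed, from wild type Balb/c mice aged 10 weeks. Each of 9 arrays held the SVF of 1 mouse, 3 mice on each of days 0, 1 and 3 after surgical injury of the fat pad. Day 0 is taken here as the nonprimed state, and days 1 and 3 as primed by the surgery, which in the study combined injury with ischemia although the labels name injury alone. The 3 groups share strain, genotype, tissue and age, and the labels give no array batch.

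Signals are MAS5 values on a linear scale, brought by the authors to a 2% trimmed mean of 500 on every array, and they cannot be compared between genes because each probe set has its own brightness. Between 24106 and 26299 probe sets were called present per array, and the 3′ to 5′ ratio of the actin controls was 1.15 to 1.32. Markers of adipose progenitors and fibroblasts (11 genes) and of endothelium (10 genes) were present on all 9 arrays, and so was the adipocyte hormone Adipoq, while Lep and Retn were absent throughout. Across all 11797 genes tested the median log2 change was -0.13 on day 1 and -0.03 on day 3 against day 0, so a member that moved with the bulk of genes on day 1 would stand slightly below 0.

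More than 50% of the measured members were called higher on each day after priming. Day 1 SVFs had 15 of 29 members higher and 2 lower than day 0 SVFs (51.7% and 6.9%, against 10.8% and 17.9% of all genes tested), and 12 did not pass the test, an adjusted p under 0.05 with limma and Benjamini-Hochberg adjustment over all genes. Day 3 SVFs had 17 members higher and 3 lower than day 0 SVFs (58.6% and 10.3%, against 13.6% and 12.5% of all genes), with 9 not passing. The members' median log2 change was 0.47 on day 1 and 0.59 on day 3. Both comparisons use the same day 0 mice. After median centring of the arrays, the day 1 count became 17 higher and 0 lower, and under quantile normalization it became 16 higher and 0 lower. The counts over all 11797 genes moved as well, from 1269 higher and 2110 lower to 1702 and 1272 after median centring. Under quantile normalization they were 1378 higher and 1540 lower. Set relative to Gapdh, itself a member that rose, the 28 others split into 10 higher and 8 lower on day 1. Of all 11796 genes tested under this scaling, 525 were higher and 7535 lower on day 1. On day 3 the members split into 8 higher and 6 lower, and the count over all genes is not given here. This scaling, chosen after seeing the data, lowers the median of all genes to -0.58 on day 1 and -0.47 on day 3. Since an SVF is a mixture of cells, a change in the share of a cell type and a change of RNA per cell cannot be told apart in these values.

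The spread between mice was small beside these changes for most of the members that passed. On day 1 all 3 mice lay above all 3 day 0 mice for 14 members and below them for 3, a pattern met by 13.8% and 26.1% of all genes. On day 3 this held for 19 members and 4 members, against 22.6% and 24.6% of all genes. A change of at least 2-fold was called upwards for 7 members on each day (3.64% of all genes on day 1 and 4.44% on day 3) and downwards for 0 on each day (3.36% and 3.48%). For the downward direction an unadjusted p under 0.05 without a limit on the fold was reached by 4 members on day 1 and by 5 on day 3. The share of all genes at that unadjusted p was not counted, so these 2 counts have no share of all genes to be read against. The adjusted lower calls, 17.9% and 12.5% of all genes, follow a stricter limit. Mice are numbered by their replicate number. On day 1, mouse 1 had the highest signal of its day for all 15 members that rose, and mouse 2 the lowest for 9 of them. Without mouse 2 the day 1 count was 17 higher and 2 lower, and without mouse 1 it was 13 higher and 0 lower. Calls over all 11797 genes fell too, from 1269 higher and 2110 lower to 1002 and 1320 without mouse 2. Without mouse 1 they fell to 806 and 1130. The day 1 count of lower members was also 0 without day 0 mouse 1 or 3 and 1 without day 0 mouse 2, and the day 3 count was 1 without day 0 mouse 3 or day 3 mouse 3. Lower calls over all genes on day 1 were then 1304, 1000 and 1922 without day 0 mouse 1, 3 and 2. Those of day 3 are not given here.

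**Figure D1:**
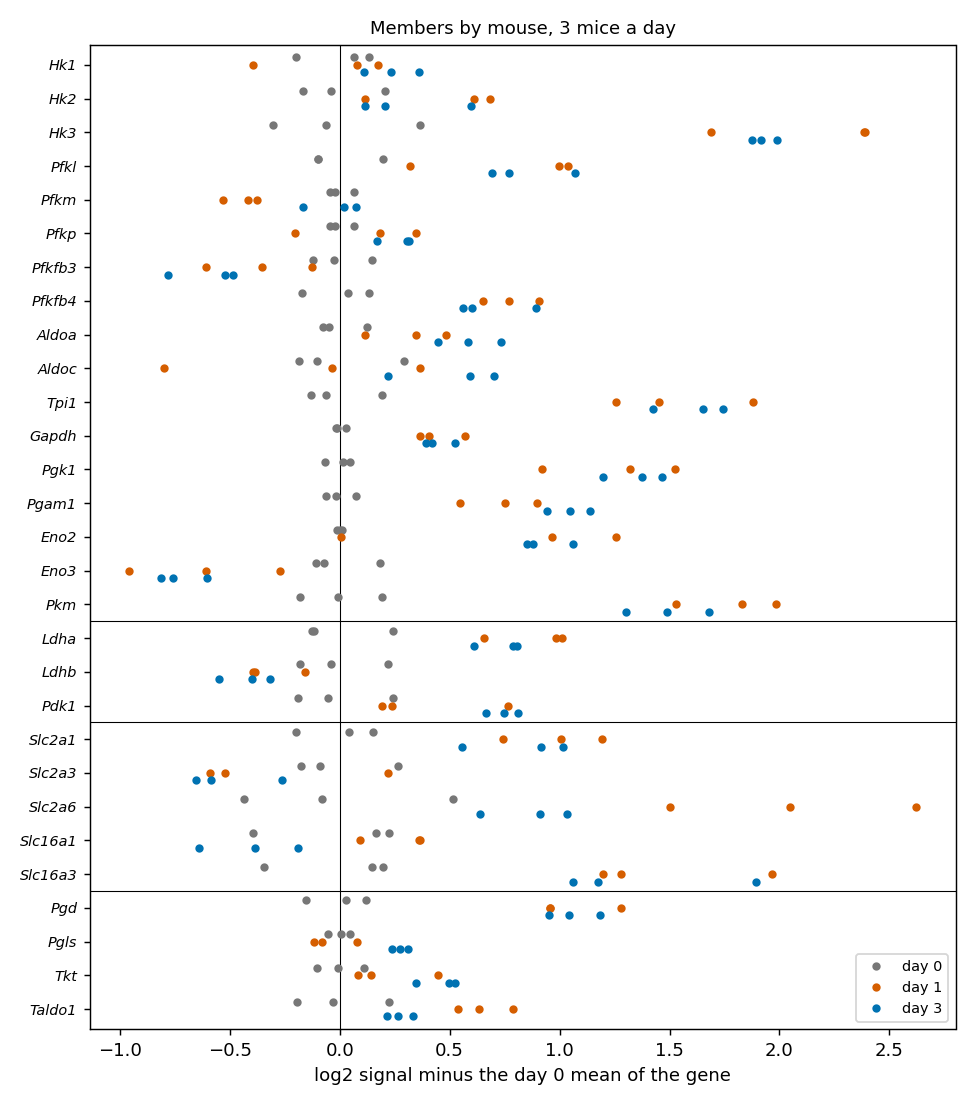
Log2 signal of each of the 29 measured members in each mouse (1 point per mouse, 3 mice a day), set against the mean of the day 0 mice of the same gene; lines divide glycolysis, pyruvate and lactate handling, transport and the pentose phosphate pathway. Day 1 and day 3 points of Hk3, Tpi1, Pgk1 and Pkm lie clear of day 0, and Eno3 lies below it on both days.

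Markers of several cell types also changed after priming. Of 10 neutrophil markers tested, 9 were higher on day 1 and 8 on day 3 than on day 0, and their summed signal was 2029 to 2166 on day 0, 48230 to 86310 on day 1 and 10530 to 23390 on day 3. Of the granule genes on that list, Mmp9 and Lcn2 were called present on all 3 arrays of each day. Mmp8 and Ngp were called present on 1 day 0 array and on all 3 arrays of days 1 and 3. Camp and Elane were called present on 0 arrays, Mpo on 1 day 3 array and Ltf on 2 day 1 arrays. Of 8 monocyte markers 7 were higher on day 1 and 6 on day 3, with a summed signal of 27320 to 32780 on day 0, 72910 to 95710 on day 1 and 56210 to 59870 on day 3. Of 14 macrophage markers 5 were higher and 1 lower on day 1, and 6 higher and 2 lower on day 3, with a summed signal of 60970 to 67350 on day 0, 73460 to 92610 on day 1 and 75970 to 94650 on day 3. Of 11 proliferation genes 9 were higher on day 3, with a summed signal of 25290 to 25810 against 17270 to 19630 on day 0. Of 10 T cell markers 6 were lower on day 1 and 7 on day 3, of 7 B cell markers 4 and 5, of 10 endothelial markers 7 and 4, and of 11 progenitor and fibroblast markers 3 and 5, with 1 higher on day 3. Of 5 mature adipocyte markers 1 and 4 were lower, of 6 pericyte and smooth muscle markers 4 and 3, with 1 higher on each day, and of 6 mast cell markers 5 were lower on day 3. Of all genes, 10.8% were called higher and 17.9% lower on day 1, and 13.6% higher and 12.5% lower on day 3. The part of these cells in the changes of the members was not tested.

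**Figure D2:**
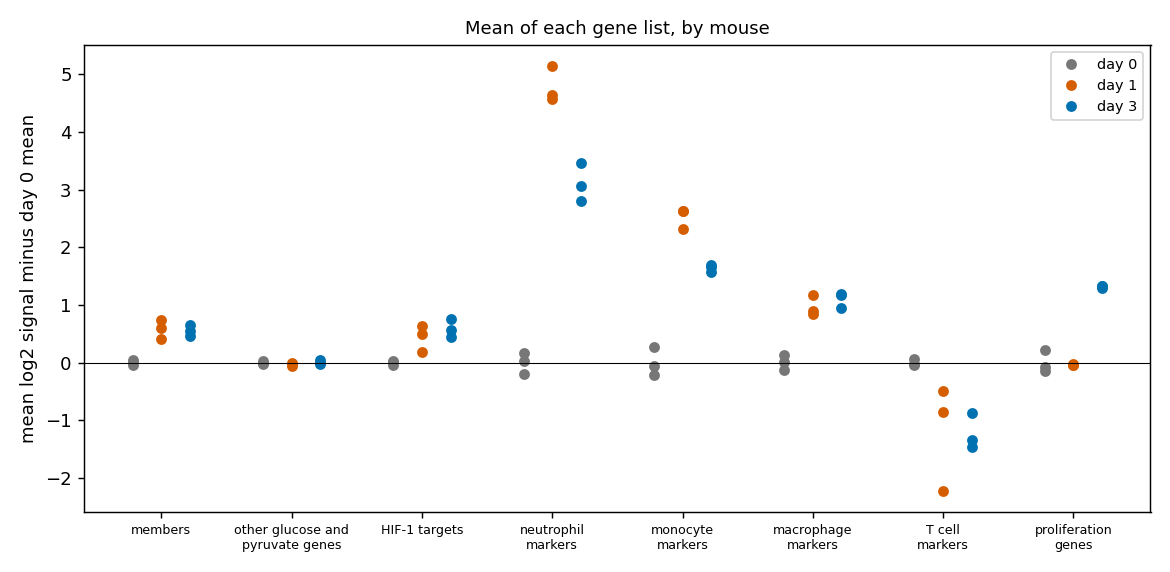
Mean log2 signal of each gene list in each mouse, set against its day 0 mean (1 point per mouse). The mean of the members stood 0.41 to 0.73 above day 0 on day 1 and 0.46 to 0.65 on day 3, while the neutrophil markers stood 4.57 to 5.15 above day 0 on day 1 and 2.81 to 3.47 on day 3.

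Promoter sequences are shown for 5 members that mark the range of responses, because the core letters of the HIF response element, ACGTG or GCGTG on either strand, occur at very different density in them. The windows run from 250 bases before to 50 bases after a RefSeq transcript start (build GRCm38.p6, written along the strand of the gene), and capitals mark each match. Pgk1 (chrX:106186850-106187149, plus strand) and Slc16a3 (chr11:120948817-120949116, plus strand) each held 2 matches. Ldha (chr7:46845554-46845853, plus strand) held 7, and its CACGTG palindromes, which are also E-box letters, count on both strands. Tpi1 (chr6:124814109-124814408, minus strand), among the strongest risers, held 0. Eno3 (chr11:70656926-70657225, plus strand), which fell, held 1.
Pgk1: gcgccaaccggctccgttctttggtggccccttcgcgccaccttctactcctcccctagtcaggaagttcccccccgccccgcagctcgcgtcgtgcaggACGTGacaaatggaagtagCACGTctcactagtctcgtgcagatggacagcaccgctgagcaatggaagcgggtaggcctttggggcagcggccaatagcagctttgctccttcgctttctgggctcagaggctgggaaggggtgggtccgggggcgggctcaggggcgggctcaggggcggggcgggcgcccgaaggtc
Slc16a3: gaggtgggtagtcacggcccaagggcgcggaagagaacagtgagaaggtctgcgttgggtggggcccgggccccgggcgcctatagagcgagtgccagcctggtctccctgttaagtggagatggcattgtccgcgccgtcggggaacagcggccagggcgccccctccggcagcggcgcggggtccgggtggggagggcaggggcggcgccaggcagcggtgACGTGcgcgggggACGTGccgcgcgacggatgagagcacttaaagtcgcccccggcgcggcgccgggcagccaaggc
Ldha: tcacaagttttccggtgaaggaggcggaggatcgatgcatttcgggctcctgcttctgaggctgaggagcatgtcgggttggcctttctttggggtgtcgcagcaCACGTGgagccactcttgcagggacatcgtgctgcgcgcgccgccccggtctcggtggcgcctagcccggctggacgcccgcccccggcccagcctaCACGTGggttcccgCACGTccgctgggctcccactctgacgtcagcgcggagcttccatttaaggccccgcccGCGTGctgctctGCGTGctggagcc
Tpi1: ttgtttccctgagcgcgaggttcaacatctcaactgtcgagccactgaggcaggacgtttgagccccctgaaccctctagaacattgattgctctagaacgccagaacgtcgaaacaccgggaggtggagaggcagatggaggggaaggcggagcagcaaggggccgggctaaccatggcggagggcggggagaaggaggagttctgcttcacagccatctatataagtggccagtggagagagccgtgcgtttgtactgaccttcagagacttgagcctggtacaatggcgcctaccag
Eno3: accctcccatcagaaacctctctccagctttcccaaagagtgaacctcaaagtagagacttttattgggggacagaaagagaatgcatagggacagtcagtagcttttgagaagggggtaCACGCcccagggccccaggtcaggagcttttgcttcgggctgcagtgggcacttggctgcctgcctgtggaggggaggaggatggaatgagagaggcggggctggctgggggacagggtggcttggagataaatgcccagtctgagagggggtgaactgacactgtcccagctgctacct

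RefSeq promoters were matched for 31 of the 32 members, with 45 windows in all because some genes have several starts. ACGTG was found in 42.2% of the 45 windows and in 19.6% of all 32851 promoter windows, GCGTG in 60% and 32.4%, and either in 80% and 43.8%. CACGTG, which contains ACGTG, was found in 8.89% of the members' windows and in 7.15% of all windows. The members' windows were also richer in G and C, with a median of 60.7% against 52.7% and with 20 CG dinucleotides against 7, and both motifs contain CG. Counted by gene, 28 of 31 members held ACGTG or GCGTG in at least 1 window, against 46.7% of all genes. Letters in a window are a description of the sequence, and these arrays measured no binding.

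The hexokinases, which trap glucose in the cell as its phosphate, moved very unequally. Hk3, the form found mainly in blood cells, had signals of 271, 321 and 431 on day 0, 1754, 1077 and 1747 on day 1, and 1261, 1227 and 1328 on day 3. Every primed mouse was above the brightest day 0 mouse. On day 0 the probe set was called present in 2 of 3 mice, so that Hk3 passed the filter through days 1 and 3. The log2 change of Hk3 was 2.15 ± 0.21 on day 1 (limma SE, n = 3 mice a day, adjusted p = 3.3e-05) and 1.93 ± 0.21 on day 3 (adjusted p = 7.03e-05), 4.45-fold and 3.80-fold. These sizes belong to the brighter probe set of Hk3. The dimmer one was called present on 0 arrays of day 0 and on all 3 arrays of days 1 and 3. It was also called higher on both days, but its change has no measured size. Hk1, the form of most tissues, had 1318, 1100 and 1385 on day 0, 1332, 959 and 1425 on day 1, and 1362, 1622 and 1484 on day 3. Its groups overlapped, and neither comparison passed (adjusted p = 0.845 and 0.307). Hk2, the inducible form of muscle and fat, had 2026, 2212 and 2628 on day 0 and 3654, 2468 and 3477 on day 1, an overlap of 1 mouse, while on day 3 it had 2461, 3438 and 2627. Its day 1 change of 0.47 ± 0.18 missed the threshold (adjusted p = 0.0643). Without day 1 mouse 2, which lay among the day 0 mice, the change of Hk2 was 0.65 (adjusted p = 0.0211).

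Phosphofructokinase makes the committed step of glycolysis, and its 3 subunit genes differed in direction. Pfkl, the liver type, had 386, 315 and 315 on day 0, 692, 420.7 and 673 on day 1, and 575, 707 and 545 on day 3. All primed mice were above all day 0 mice, with day 1 mouse 2 closest to them. Pfkl rose by 0.78 ± 0.20 on day 1 (adjusted p = 0.0138) and by 0.84 ± 0.20 on day 3 (adjusted p = 0.00922), although the day 1 call was lost without day 0 mouse 3 (adjusted p = 0.0546) or day 1 mouse 1 (adjusted p = 0.0566). The sign of Pfkl depends on the probe set: without probe sets that can share transcripts its change was -0.76 on day 1 (adjusted p = 0.0474) and -0.37 on day 3 (adjusted p = 0.325). Pfkm, the muscle type, had 353, 347 and 375 on day 0, 269, 276 and 248 on day 1, and 320, 377 and 364 on day 3. It was lower in every day 1 mouse and overlapped day 0 on day 3. The log2 change of Pfkm on day 1 was -0.44 ± 0.13 (adjusted p = 0.0282). That call was lost after quantile normalization (-0.25, adjusted p = 0.202) and median centring (-0.32, adjusted p = 0.102), and without day 0 mouse 1 or 3 or day 1 mouse 1 or 3 (adjusted p = 0.0517 to 0.0909). Pfkp, the platelet type, changed by 0.11 ± 0.14 on day 1 and 0.26 ± 0.14 on day 3 and was not called (adjusted p = 0.564 and 0.178), and relative to Gapdh its day 1 change turned to -0.34 (adjusted p = 0.0476).

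The bifunctional enzymes Pfkfb3 and Pfkfb4 set the amount of the sugar bisphosphate that activates phosphofructokinase, and they moved in opposite directions. Pfkfb4 had 320, 343 and 278 on day 0, 586, 532 and 490.5 on day 1, and 581, 474 and 461 on day 3. No primed mouse overlapped a day 0 mouse, and the log2 changes were 0.78 ± 0.15 on day 1 (adjusted p = 0.00311) and 0.69 ± 0.15 on day 3 (adjusted p = 0.00556). Pfkfb3 had 1264, 1183 and 1426 on day 0, 1007, 845 and 1180 on day 1, and 896, 921 and 749.6 on day 3. Day 1 mouse 3 lay just under the lowest day 0 mouse, and all day 3 mice lay well under it. The log2 change of Pfkfb3 was -0.36 ± 0.15 on day 1 (adjusted p = 0.0873) and -0.60 ± 0.15 on day 3 (adjusted p = 0.013), and the day 3 call was lost without day 0 mouse 3 (adjusted p = 0.055) or day 3 mouse 3 (adjusted p = 0.0536).

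Aldolase and triose-phosphate isomerase, which split the hexose and interconvert the resulting trioses, rose to different degrees. Aldoa, the main aldolase outside liver and brain, had 7513, 7378 and 8487 on day 0, 9879, 8413 and 10860 on day 1, and 10590, 12950 and 11670 on day 3. Day 1 mouse 2 fell among the day 0 mice, while day 3 was clear of day 0. The change of Aldoa was 0.31 ± 0.12 on day 1 (adjusted p = 0.0645) and 0.59 ± 0.12 on day 3 (adjusted p = 0.00381). Of its 4 further probe sets, tested one by one, 2 were called higher on day 1 (0.63 and 0.52, adjusted p = 0.0102 and 0.0139), and the day 1 call was also made with the mean of probe sets (0.39, adjusted p = 0.0401), with median centring (0.43, adjusted p = 0.0189) and without day 1 mouse 2 (0.41, adjusted p = 0.0292). Aldoc, the brain type, had 98.3, 93.0 and 129 on day 0, 103, 60.9 and 136 on day 1, and 159, 123 and 172 on day 3, was called present on 7 of 9 arrays and was not called on either day. Tpi1 had 2525, 3016 and 2412 on day 0, 9709, 6307 and 7212 on day 1, and 7093, 8847 and 8306 on day 3, so that the lowest primed mouse had more than 2 times the signal of the highest day 0 mouse. It rose by 1.53 ± 0.16 on day 1 (2.89-fold, adjusted p = 5.38e-05) and by 1.61 ± 0.16 on day 3 (3.05-fold, adjusted p = 3.71e-05), and its 2 other probe sets gave 1.46 and 1.61 on day 1 and 1.52 and 1.66 on day 3.

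All measured enzymes from Gapdh to pyruvate kinase, the stretch of glycolysis that yields ATP, were called higher on both days except muscle enolase. The day 1 mice of Eno2 overlapped day 0. Gapdh, the dehydrogenase often used as a loading control, had 16710, 17190 and 16680 on day 0, 25020, 21700 and 22370 on day 1, and 22160, 22520 and 24250 on day 3. All primed mice were above all day 0 mice. Its log2 change was 0.45 ± 0.08 on day 1 (1.36-fold, adjusted p = 0.00273) and 0.45 ± 0.08 on day 3 (1.36-fold, adjusted p = 0.00246). These values come from the 5′ control probe set. The middle and 3′ control probe sets gave 0.72 and 0.71 on day 1 and 0.70 and 0.67 on day 3, and the 3′ to 5′ ratio of Gapdh was 0.537 to 0.592 on day 0, 0.671 to 0.693 on day 1 and 0.633 to 0.709 on day 3. The part of RNA integrity in this difference was not tested.

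Pgk1, the first ATP-forming kinase of glycolysis, had 4224, 4473 and 4569 on day 0, 12700, 8373 and 11040 on day 1, and 10140, 12210 and 11480 on day 3. Its primed mice were all far above day 0, day 1 mouse 2 being the lowest of them. Pgk1 rose by 1.25 ± 0.14 on day 1 (2.39-fold, adjusted p = 9.09e-05) and by 1.35 ± 0.14 on day 3 (2.54-fold, adjusted p = 5.18e-05). Pgam1, the phosphoglycerate mutase, had 3684, 3803 and 4051 on day 0, 7151, 5607 and 6471 on day 1, and 7377, 8450 and 7945 on day 3. The 3 days did not overlap for Pgam1, day 3 being highest. Its changes were 0.73 ± 0.11 on day 1 (adjusted p = 0.000758) and 1.04 ± 0.11 on day 3 (adjusted p = 5.69e-05), while day 3 against day 1 gave 0.31 ± 0.11 (adjusted p = 0.08).

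Enolase forms phosphoenolpyruvate, and its 2 measured genes went in opposite directions. Eno2, the neuronal form, had 284, 279 and 282 on day 0, 673, 283 and 551 on day 1, and 519, 588 and 509 on day 3. Day 1 mouse 2 was at the day 0 level while mice 1 and 3 were clearly above it. Eno2 rose by 0.74 ± 0.25 on day 1 (adjusted p = 0.0465) and by 0.93 ± 0.25 on day 3 (adjusted p = 0.0194). The day 1 value became 1.11 without day 1 mouse 2 (adjusted p = 0.000676) and 0.49 without day 1 mouse 1 (adjusted p = 0.176). Leaving out any array other than day 1 mouse 2 ended the day 1 call (adjusted p = 0.0607 to 0.176), and the day 3 call was lost without day 0 mouse 2 or 3 or day 3 mouse 1 or 2 (adjusted p = 0.0508 to 0.0718). Eno3, the muscle form, had 528, 629.8 and 515 on day 0, 286, 461 and 364 on day 1, and 329, 366 and 316 on day 3. Every primed mouse was below every day 0 mouse. Its log2 change was -0.61 ± 0.18 on day 1 (adjusted p = 0.0247) and -0.72 ± 0.18 on day 3 (adjusted p = 0.0114). The day 1 call of Eno3 was lost after quantile normalization (-0.45, adjusted p = 0.0799), after median centring (-0.49, adjusted p = 0.0623), and without any 1 of the day 0 mice or day 1 mouse 1 (adjusted p = 0.0502 to 0.0922). Of 7 skeletal muscle markers 1 was higher on day 1, as were 10.8% of all genes. The summed signal of these markers was 688 to 1779 on day 0, 1132 to 3416 on day 1 and 1035 to 2261 on day 3. Acta1, Myh1, Mylpf and Myl1 were called present on all 9 arrays, Ckm and Myh4 on 2 arrays of each day, and Myh2 and Mb on 0. The part of muscle tissue in the values of Eno3 and Pfkm was not tested.

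Pyruvate kinase closes glycolysis, and Pkm, its gene outside liver and red cells, had 1607, 2082 and 1813 on day 0, 7209, 6492 and 5265 on day 1, and 4499, 5846 and 5111 on day 3. The lowest primed mouse was more than 2 times the highest day 0 mouse. Pkm rose by 1.78 ± 0.15 on day 1 (3.44-fold, adjusted p = 9.76e-06) and by 1.49 ± 0.15 on day 3 (2.81-fold, adjusted p = 3.86e-05). The probe set does not separate the splice forms of Pkm. Of the 17 glycolysis genes measured, 9 were thus higher and 2 lower on day 1, and 10 higher and 2 lower on day 3, where all genes gave 10.8% and 17.9% on day 1 and 13.6% and 12.5% on day 3.

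**Figure D3:**
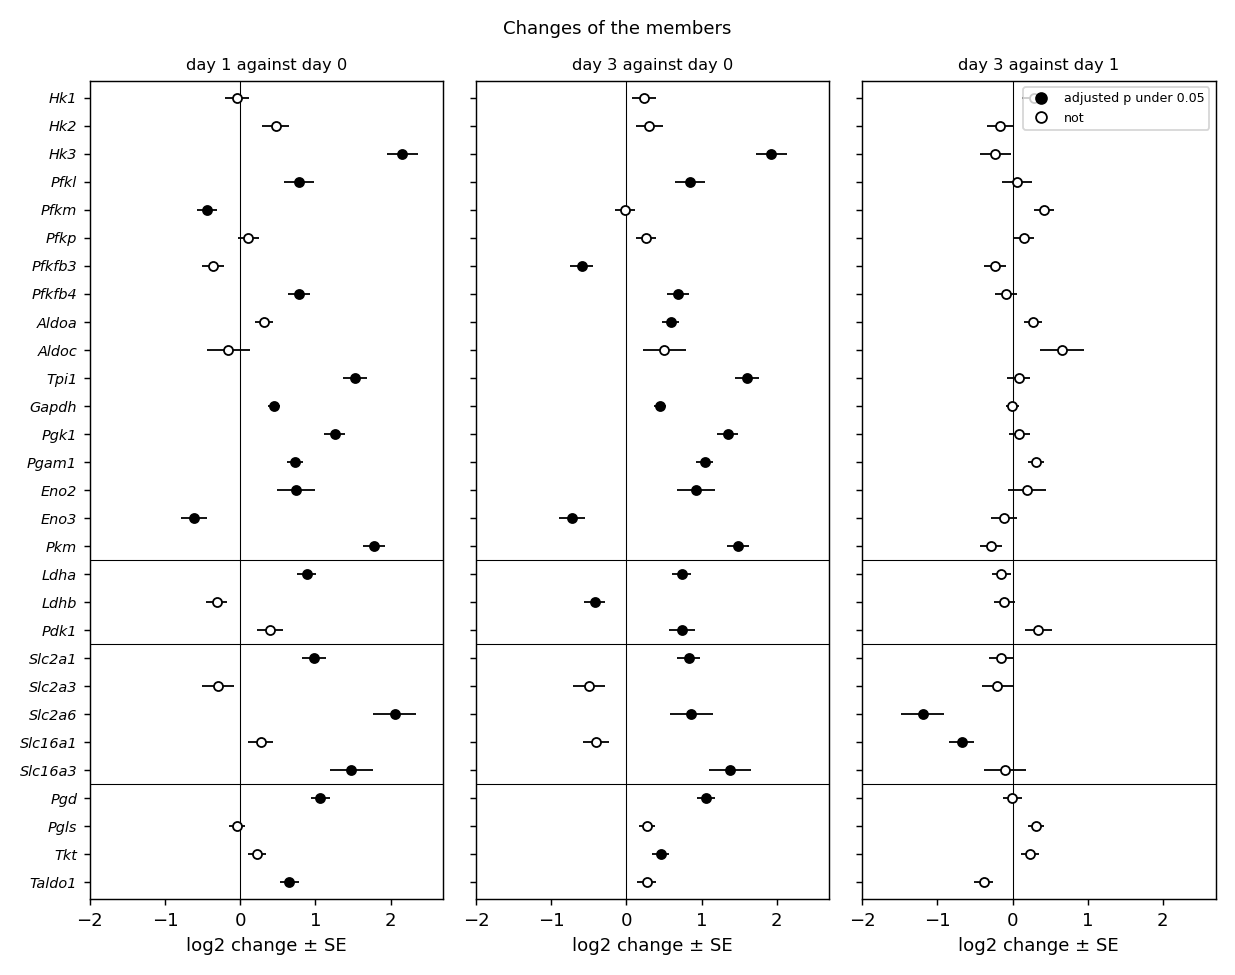
Log2 change of each member in the 3 comparisons (points, with limma's standard error as bars; 3 mice a day), filled where the adjusted p was under 0.05. Hk3, Slc2a6 and Pkm had the highest day 1 values of the measured members, and 2 members, Slc2a6 and Slc16a1, were called between days 3 and 1.

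The lactate dehydrogenase genes moved in opposite directions, with both called on day 3. Ldha, whose subunit favours the making of lactate, had 7482, 9665 and 7521 on day 0, 16460, 16160 and 12860 on day 1, and 12470, 14260 and 14080 on day 3. All primed mice lay above all day 0 mice. Ldha rose by 0.88 ± 0.13 on day 1 (1.85-fold, adjusted p = 0.00062) and by 0.73 ± 0.13 on day 3 (1.66-fold, adjusted p = 0.00183). Ldhb, the heart-type gene, had 588, 777 and 649 on day 0, 507, 597 and 510 on day 1, and 456, 535 and 506 on day 3. It overlapped by 1 mouse on day 1 (-0.31 ± 0.14, adjusted p = 0.117), and on day 3 all mice were below day 0 (-0.42 ± 0.14, adjusted p = 0.0481). That day 3 call was close to the threshold and was lost under quantile normalization (adjusted p = 0.0687), median centring (adjusted p = 0.0528) and without day 0 mouse 2 or 3, day 1 mouse 1 or any 1 of the day 3 mice (adjusted p = 0.0501 to 0.17), while 2 of its 3 further probe sets were called lower on day 3 (-0.84 and -0.95).

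Pdk1, the kinase that switches off pyruvate dehydrogenase and so keeps pyruvate out of the mitochondrion, had 348, 426 and 316 on day 0, 613, 412 and 425 on day 1, and 572, 633 and 606 on day 3. The day 3 mice were clear of day 0 and 2 of the day 1 mice were not. Its change was 0.40 ± 0.17 on day 1 (adjusted p = 0.106) and 0.74 ± 0.17 on day 3 (adjusted p = 0.0095). The 4 probe sets of Pdk1 did not move together. Tested one by one, 1 other rose on day 3 (0.86, adjusted p = 0.0251), 1 gave -0.02 (adjusted p = 0.954), and 1 was called present on all 3 arrays of day 0, on 1 of day 1 and on 0 of day 3, so that its lower signal on day 3 has no measured size.

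The SLC2A family holds carriers of glucose and other hexoses, and 2 of its 3 genes among the members rose. Slc2a1, the widespread basal glucose transporter, had 1823, 2153 and 2324 on day 0, 4781, 3496 and 4192 on day 1, and 3074, 4229 and 3937 on day 3. No primed mouse overlapped day 0. Slc2a1 rose by 0.98 ± 0.16 on day 1 (1.97-fold, adjusted p = 0.0011) and by 0.83 ± 0.16 on day 3 (1.78-fold, adjusted p = 0.00275), and its 2 further probe sets were also called on both days. Slc2a6, a family member described in macrophages, had 228.5, 152 and 118 on day 0, 984, 661 and 454 on day 1, and 249, 301 and 328 on day 3. All primed mice were above day 0, with day 1 above day 3 and with a spread of about 2-fold within day 0 and within day 1. It rose by 2.06 ± 0.29 on day 1 (4.16-fold, adjusted p = 0.000475) and by 0.86 ± 0.29 on day 3 (adjusted p = 0.0454), and the day 3 call was lost without day 0 mouse 2 or 3, day 1 mouse 2 or any 1 of the day 3 mice (adjusted p = 0.0583 to 0.162). Slc2a3, the high-affinity carrier, had 1905, 1797 and 2440 on day 0, 1349, 1414 and 2363 on day 1, and 1292, 1352 and 1692 on day 3. On day 1, 2 of the mice were below all day 0 mice, and so were all day 3 mice. The changes of -0.30 ± 0.21 and -0.50 ± 0.21 were not called (adjusted p = 0.299 and 0.101). Without day 1 mouse 3 both changes were called, at -0.55 (adjusted p = 0.0191) and -0.50 (adjusted p = 0.0221). The day 3 change was also called with array weights (-0.62, adjusted p = 0.00959) and in a fit of the 6 arrays compared (-0.50, adjusted p = 0.0237). Tested one by one, 1 further probe set of Slc2a3 was called lower on day 3 (-0.73, adjusted p = 0.0386). Its remaining probe sets were not called on either day.

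Lactate crosses the membrane through the SLC16A carriers. Slc16a3, the exporter of glycolytic cells, had 77.0, 79.8 and 54.8 on day 0, 272, 169 and 159 on day 1, and 157, 259 and 145 on day 3. Its primed mice were all above day 0, where it was called present in 1 of 3 mice, so that it passed the filter through days 1 and 3 and its day 0 level is near background. Slc16a3 rose by 1.48 ± 0.28 on day 1 (2.79-fold, adjusted p = 0.00337) and by 1.38 ± 0.28 on day 3 (2.60-fold, adjusted p = 0.00445). Slc16a1, the carrier found in most tissues, had 4214, 6473 and 6207 on day 0, 7117, 7112 and 5898 on day 1, and 3556, 4847 and 4232 on day 3. It overlapped day 0 on both days and was not called against day 0 (0.27 ± 0.17 on day 1 and -0.41 ± 0.17 on day 3, adjusted p = 0.242 and 0.103). Without day 0 mouse 1, the dimmest of its day, the day 3 fall was called (-0.60, adjusted p = 0.0156).

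The pentose phosphate genes rose in part. Pgd, the NADPH-forming phosphogluconate dehydrogenase, had 1796, 2170 and 2037 on day 0, 4847, 3866 and 3875 on day 1, and 4113, 4526 and 3862 on day 3. The primed mice were all well above day 0. Pgd rose by 1.06 ± 0.13 on day 1 (2.09-fold, adjusted p = 0.000141) and by 1.06 ± 0.13 on day 3 (2.08-fold, adjusted p = 0.000131), and all 4 of its probe sets were called on both days. Pgls, the lactonase just before it, had 1487, 1591 and 1545 on day 0, 1419, 1625 and 1459 on day 1, and 1817, 1909 and 1862 on day 3. It overlapped day 0 on day 1 and lay above it on day 3 without being called (0.27 ± 0.10, adjusted p = 0.0745).

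The enzymes of the reversible branch, which shuffle sugar phosphates back to glycolysis, were each called on 1 day. Taldo1, transaldolase, had 2488, 2972 and 2218 on day 0, 4391, 3943 and 3695 on day 1, and 3206, 3051 and 2953 on day 3. All day 1 mice were above all mice of the other days, and day 3 overlapped day 0 by 1 mouse. Taldo1 rose by 0.65 ± 0.12 on day 1 (adjusted p = 0.00327), and its day 3 change of 0.27 ± 0.12 was not called (adjusted p = 0.129). Tkt, transketolase, had 6827, 6287 and 5892 on day 0, 8629, 6698 and 6975 on day 1, and 8039, 9096 and 8922 on day 3. Day 3 was clear of day 0 and day 1 was not. It rose by 0.46 ± 0.11 on day 3 (adjusted p = 0.0134), a call lost without day 0 mouse 3 (adjusted p = 0.0571) or day 3 mouse 2 (adjusted p = 0.0593), and changed by 0.22 ± 0.11 on day 1 (adjusted p = 0.157). Day 3 against day 1 was not called for Taldo1 (-0.38, adjusted p = 0.0606) or for Tkt (0.23, adjusted p = 0.193).

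Few members moved between the primed days. Day 3 SVFs had 0 members higher and 2 lower than day 1 SVFs, against 9.66% and 4.54% of all genes. An unadjusted p under 0.05 in the same limma fit was reached by 5 members upwards and 3 downwards. The share of all genes at that unadjusted p was not counted. Under quantile normalization, averaging of probe sets, or a fit with no variance trend, 1 member was called higher. At a 2-fold limit 1 member was lower and 0 were higher (1.6% and 2.08% of all genes). All day 3 mice lay above all day 1 mice for 3 members and below them for 3, against 23.4% and 11.5% of all genes. The log2 change of Slc2a6 was -1.20 ± 0.29 (adjusted p = 0.0185) and that of Slc16a1 was -0.68 ± 0.17 (adjusted p = 0.0225). For both, all day 3 mice were below all day 1 mice. The call of Slc2a6 was lost without day 1 mouse 1 or 2 or day 3 mouse 1 or 2 (adjusted p = 0.0555 to 0.0803). That of Slc16a1 was lost without day 1 mouse 1 or 2 or day 3 mouse 1 or 3 (adjusted p = 0.0582 to 0.104). The members' median change was -0.005, against 0.09 for all genes.

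Ratios of genes with related roles, formed within each array, do not depend on how the array was scaled. Over 12 such ratios an exact permutation test of the difference among the 3 days, over all 1680 assignments of mice to days, can give no p below 0.00357. Hk3 over Hk1 reached that value (adjusted p = 0.0429 over the 12 ratios), with log2 ratios 2.20 higher on day 1 and 1.69 higher on day 3 than on day 0. Slc16a3 over Slc16a1 was 1.21 higher on day 1 and 1.78 higher on day 3 (exact p = 0.00714, adjusted p = 0.0429), and no primed mouse overlapped day 0. Hk3 and Slc16a3 were called present in 2 and 1 of 3 day 0 mice and passed the filter through days 1 and 3. The day 0 side of their ratios is therefore near background. Ldha over Ldhb lay at -0.08 to 0.06 around its day 0 mean on day 0, at 1.04 to 1.41 on day 1 and at 1.12 to 1.19 on day 3 (exact p = 0.0321, adjusted p = 0.0476). Pfkfb4 over Pfkfb3 was 1.14 higher on day 1 and 1.28 higher on day 3 (exact p = 0.0214, adjusted p = 0.0476).

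Among carriers, the log2 ratio of Slc2a3 over Slc2a1 changed by -1.28 on day 1 and by -1.33 on day 3 (exact p = 0.0357, adjusted p = 0.0476), with no overlap. Leaving out day 0 mouse 1 or day 0 mouse 3 gave an exact p of 0.0536 for it. Pfkl over Pfkm (1.23 and 0.87, exact p = 0.0107), Pfkl over Pfkp (0.67 and 0.58, exact p = 0.0179), Hk2 over Hk1 (0.52 and 0.07, exact p = 0.025) and Hk3 over Hk2 (1.68 and 1.62, exact p = 0.0357) also passed after adjustment (adjusted p = 0.0429 to 0.0476). Without probe sets that can share transcripts Pfkl over Pfkm gave an exact p of 0.575. Of the others, Hk2 over Hk1 and Pfkl over Pfkp gave an exact p of 0.0679 and 0.0571 without day 1 mouse 1. The remaining 3 ratios did not pass, with an exact p of 0.0536 for Pfkp over Pfkm, 0.0714 for Slc2a6 over Slc2a1 and 0.239 for Aldoa over Aldoc. Pfkp over Pfkm gave an exact p of 0.00357 without day 1 mouse 2 and 0.0393 without day 1 mouse 3, and Slc2a6 over Slc2a1 gave 0.0357 without day 0 mouse 1.

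**Figure D4:**
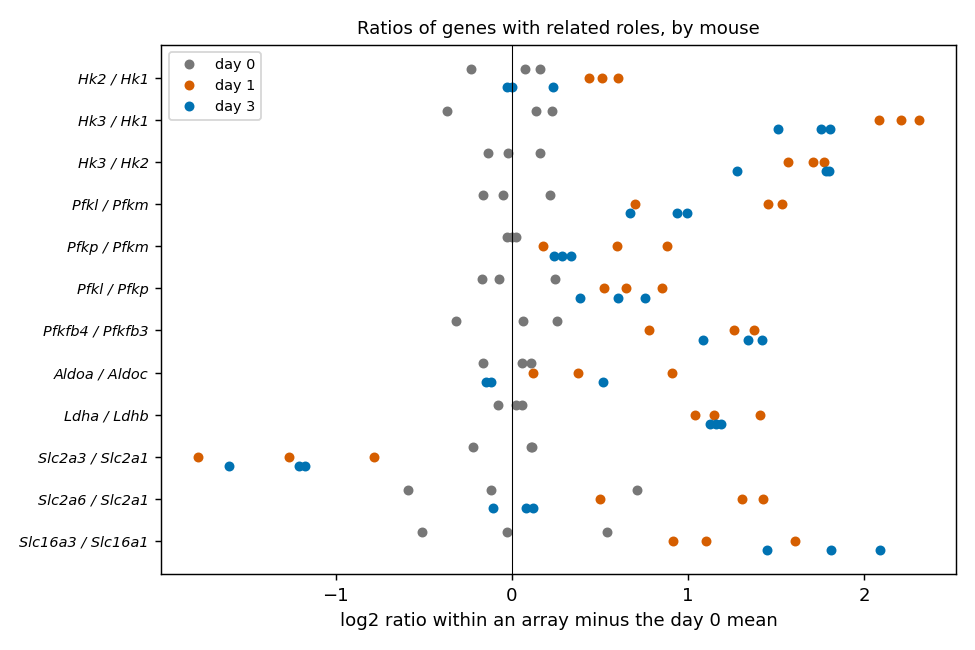
Log2 ratio of the 2 named genes within each array, set against its day 0 mean (1 point per mouse, 3 mice a day). The day 1 and day 3 points of Hk3 over Hk1, Ldha over Ldhb and Slc16a3 over Slc16a1 lie above all day 0 points, and those of Slc2a3 over Slc2a1 below them. Hk3 and Slc16a3 were not called present in every day 0 mouse.

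Probe sets of the same gene mostly moved together. Of 16 members with several probe sets that passed the filter, all probe sets had the same sign in 12 on day 1 and in 13 on day 3. The mixed genes were Pdk1, Pfkl and Pfkp on both days and Slc16a1 on day 1. For Pfkl, 2 probe sets rose (0.78 and 1.15 on day 1, 0.84 and 1.42 on day 3) and a dimmer one gave -0.76 and -0.37 (adjusted p = 0.0501 and 0.331). For Pgk1 the direction was shared and the size was not: 2 probe sets gave 1.25 and 1.36 on day 1, and the remaining one 2.61. For Slc16a1 the dimmer probe set passed the filter through day 0 alone, with signals of 47.3, 34.2 and 48.9 there, and was called present on 0 arrays of days 1 and 3, so that its change has no measured size. When probe sets whose names mark shared transcripts were left out, 19 members could be tested, and 8 were higher on each day. Of all 10178 genes tested under this rule, 1011 were higher on day 1, and the day 3 count is not given here.

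**Figure D5:**
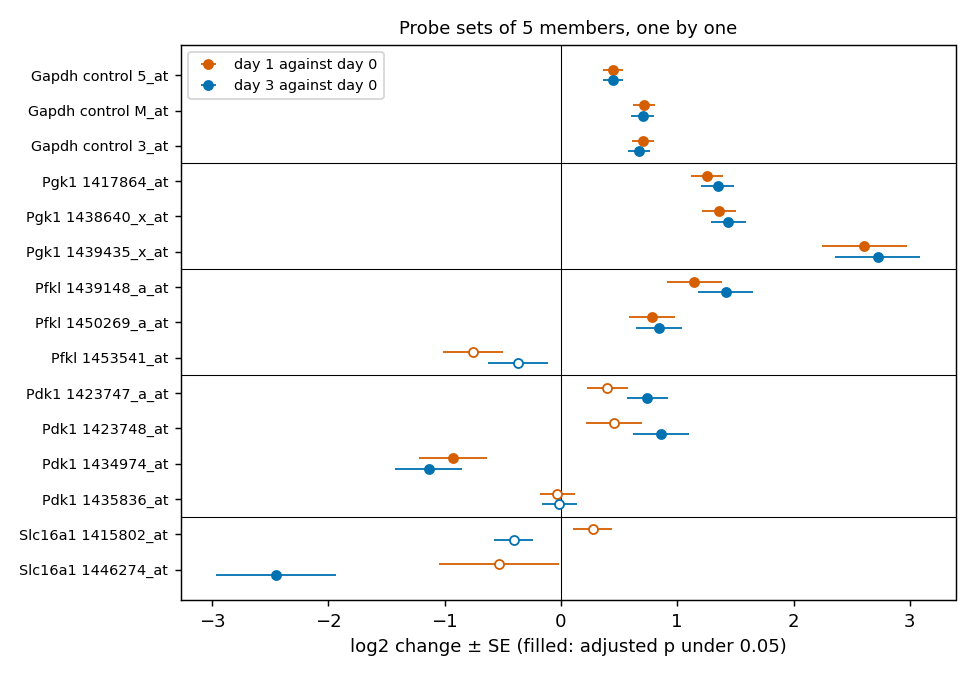
Log2 change against day 0 of each probe set of Gapdh, Pgk1, Pfkl, Pdk1 and Slc16a1 (points, with limma's standard error as bars; 3 mice a day), filled where the adjusted p over 21286 probe sets was under 0.05. The probe sets of Pfkl and Pdk1 stand on both sides of 0, and the lowest points of Pdk1 and Slc16a1 on day 3 are probe sets called present on 0 arrays of that day.

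Outside the members, other genes of glucose and pyruvate handling were called at shares near or below those of all genes, except for the higher calls of day 1. Of 63 listed, 46 were tested, with 10 higher and 8 lower on day 1 (all genes 10.8% and 17.9%) and 5 higher and 5 lower on day 3 (all genes 13.6% and 12.5%), and a median log2 change of 0.01 and 0.05. Txnip, which restrains glucose uptake, fell in every primed mouse, with 13120, 10900 and 11100 on day 0, 5154, 5549 and 6789 on day 1, and 5492, 4651 and 5198 on day 3. Its log2 change was -1.01 ± 0.12 on day 1 (adjusted p = 2e-04) and -1.19 ± 0.12 on day 3 (adjusted p = 5.38e-05). Gbe1 (glycogen branching enzyme, 1.07 ± 0.29, with day 1 mouse 2 among the day 0 mice), Pgm1 (phosphoglucomutase, 0.82 ± 0.16) and Pygl (liver glycogen phosphorylase, 0.52 ± 0.17) rose on day 1. Further risers of day 1 were Dld (0.52), Rbks (0.49) and Pdhx (0.46). Lower on day 1 were Ldhd (-1.14, called present on 2 of 3 day 1 arrays), Pfkfb2 (-0.68), Slc2a13 (-0.67), Pdp2 (-0.66) and the insulin-regulated glucose transporter Slc2a4 (at least 1.48-fold lower, adjusted p = 0.0154). Slc2a4 passed the filter through day 0 alone and was called present on 0 arrays of days 1 and 3, so its folds are bounds set by its own signal there.

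On day 3 the genes of this list called higher were Fbp2 (at least 2.55-fold, adjusted p = 0.00987), H6pd (0.48), Bsg (0.44), Ugp2 (0.43) and Emb (0.40). Fbp2 was called present on 0 arrays of days 0 and 1 and passed the filter through day 3 alone. Bsg and Emb encode the chaperones that bring lactate carriers to the membrane, and both were also called on day 1 (0.38 and 0.34). Lower on day 3, besides Txnip, were Pdk4 (-0.64), Gpd1l (-0.62), Rpia (-0.59) and Slc2a4 (at least 1.51-fold lower, adjusted p = 0.0117). Rpia, the isomerase of the pentose phosphate pathway, was lower on day 1 as well (-0.42).

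HIF-1 targets outside glucose metabolism were called higher for 7 of 15 on day 1 and for 8 of 15 on day 3 (10.8% and 13.6% of all genes). On each day 0 of them were called lower. At an unadjusted p under 0.05 in the limma fit, 0 were lower on day 1 and 1 on day 3. The share of all genes at that unadjusted p was not counted. Bnip3, a mitophagy receptor, had 1021, 1273 and 1348 on day 0, 4684, 2398 and 3997 on day 1, and 3079, 4952 and 3976 on day 3. It rose by 1.56 ± 0.24 on day 1 (adjusted p = 0.000845) and by 1.70 ± 0.24 on day 3 (adjusted p = 0.000414). Egln3, an oxygen-sensing prolyl hydroxylase, rose by 1.33 ± 0.19 and 1.88 ± 0.19 (adjusted p = 0.000473 and 3.79e-05). Further called genes were Higd1a, Vegfa, Ero1a, Ndrg1 and Mxi1 on both days, and P4ha2 on day 3 (1.41 ± 0.14). Of 7 regulators tested, Hif1a rose (0.85 ± 0.12 on day 1 and 0.81 ± 0.12 on day 3, adjusted p = 0.000545 and 0.000646), while Epas1 (-0.92 and -0.67) and Myc (-0.62 and -0.53) fell on both days and Sp1 on day 1 (-0.49). A transcript of Hif1a does not measure its protein, which is controlled mainly by oxygen-dependent breakdown.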

How the data were processed

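RNA of each SVF was hybridized to an Affymetrix Mouse430_2 array, 1 mouse per array. The deposited signal intensity values were made by the authors with MAS5 (version not given in the sources used here), scaled to a trimmed mean of 500, and each carries a deposited detection p-value and a present call. The deposited value table of the series held the same signals. Log2 signals were fitted with limma 3.58.1 (R 4.3.3) over all 9 arrays with 6 residual degrees of freedom and a variance trend, with Benjamini-Hochberg adjustment across 11797 genes. A gene entered if a probe set was called present on all 3 arrays of a day, and the brightest such probe set stood for it. The fit was tested on simulated data. The members and lists were chosen with earlier results of these data known. All members were described. Of the other lists, up to 6 called genes with the largest changes were named in each direction and comparison with day 0. Further genes named (Bsg, Emb and Rpia on day 1, and markers) were chosen after their values were seen. Replicate numbers were not taken to pair the mice. Deviations of same-numbered mice correlated at -0.147 to 0.331, and those of other mice of different days at -0.402 to 0.308. With 3 mice a day these values cannot exclude a shared batch. Sources give separate mice but no array batch, and the small number of arrays limits the precision. Alternatives were other scalings, offsets, filters, probe set rules, fits and leaving out each array, besides those chosen after seeing the data: scaling to Gapdh, adjusting the methods' test, and probe sets one by one.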

Additional observations from a re-analysis of the deposited data

How the results depend on the processing

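Of 1160 values of single members under other processing, 1115 kept direction and call, 23 lost a call, 19 gained one and 3 reversed. The reversed values arose without probe sets that can share transcripts (Pfkl -0.759 on day 1 and -0.37 on day 3, Pdk1 -0.0153 on day 3), a setting that also tested fewer members (19), with 8 members higher on day 1, 8 on day 3 and a day 3 median of 0.273. In that setting 1011 of all 10178 genes were higher on day 1. Relative to Gapdh (chosen after seeing the data) Pfkp reversed to -0.338 on day 1. On that day 8 members were lower with a median of 0.115, while 7535 of all 11796 genes were lower. Day 3 gave 8 higher, 6 lower and a median of 0.192. Members called lower on day 1 numbered 0 under quantile normalization, median centring or a fit of the 6 arrays compared, and 1 with no filter. Lower calls over all 11797 genes went from 2110 to 1540, 1272 and 1402 in the former settings, in that order. With no filter they numbered 1658 of 18194 genes. The day 3 median was 0.522 for genes present on all 9 arrays, 0.533 for the mean of probe sets and 0.513 with array weights, where 5 members were lower on day 3. Between days 3 and 1, 1 member was higher under quantile normalization, the mean of probe sets or no variance trend. The cause of these shifts was not tested. With a 2-fold limit, and with the methods' test in its one-way form (also after Benjamini-Hochberg, chosen after seeing the data), the counts became 7 up and 0 down for days 1 and 3 alike, and 1 was lower on day 3 than on day 1.

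With the replicate number as a replicate block, which shares only a number here, day 1 gave 15 members higher and 2 lower, with 17 and 4 on day 3, and 0 and 2 between days 3 and 1, the added call being Slc2a3 on day 3 (-0.5, adjusted p = 0.017). The methods' repeated-measurements form with a replicate block gave 7 higher and 0 lower on each of days 1 and 3 and 1 lower between them unadjusted, and after adjustment 5 and 0, 6 and 0, and 0. Leaving out each array gave 13 to 17 members higher, 0 to 3 lower and a median of 0.386 to 0.648 on day 1, 14 to 17, 1 to 4 and 0.551 to 0.646 on day 3, and 0 to 2, 0 to 3 and -0.0745 to 0.103 between days 3 and 1. Over all 11797 genes it gave 806 to 1686 higher and 1000 to 2863 lower on day 1. The comparison of protein sequences between members was not run. Signals near background limit Aldoc, Slc16a3 and, on day 0, Hk3.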

Other observations

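Probe sets whose annotation lists a member together with other genes were left out of the comparisons. Of 3 such probe sets for Gapdh, the one called present on all 9 arrays changed by 0.45 on day 1 and 0.43 on day 3 against day 0 on the log2 scale, close to the 5′ control probe set, and the other two were called present on 0 arrays. The single one for Hk1, shared with Rpl17, changed by -0.06 on day 1 and -0.34 on day 3.

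Between days 3 and 1, 3 further genes of glucose and pyruvate handling were higher and 3 lower. Higher on day 3 were Fbp1, a gluconeogenic phosphatase (log2 change 0.92, limma adjusted p = 0.00428), and the carriers Slc2a13 (0.75, adjusted p = 0.00522) and Slc2a10 (0.74, adjusted p = 0.0147). Lower on day 3 were Rpe of the pentose phosphate pathway (-0.58, adjusted p = 0.00785), ribokinase Rbks (-0.53, adjusted p = 0.0478) and Pdhb of pyruvate dehydrogenase (-0.50, adjusted p = 0.034). P4ha2, a collagen prolyl hydroxylase and HIF-1 target, was higher on day 3 than on day 1 (1.32, adjusted p = 0.000215).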
